A study of Mus musculus with 27 samples.

Results

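Untreated meninges were compared with untreated brain of the mouse by RNA sequencing of bulk tissue. The comparison holds 6 of the 27 libraries of the series, 3 of meninges and 3 of brain, chosen by the tissue and treatment in the sample labels and not by any measured value. The series as a whole profiled skullcap, meninges and brain without light and at 0.5 h and 24 h after UVB light at 311 nm and 2 mW was placed on the interparietal bone of the skull. The meninges were scraped off the skullcap after a wash, and polyadenylated RNA was sequenced. The labels give both groups as mice not treated with UVB, and they give no genotype, strain, sex, age, brain region or statement that the 3 replicates of a tissue came from separate animals, so the p-values measure the spread between these libraries, which may be technical. The groups carried no allele, transgene or injected agent that the labels name.

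The meninges are the membranes between skull and brain. The dura is a collagen sheet made by fibroblasts of cranial mesenchyme and neural crest origin, with fenestrated vessels, lymphatics, mast cells and many macrophages, and it touches the skull bone on its outer side. The arachnoid and pia are thinner, and their fibroblasts form a barrier with tight junctions, make retinoic acid and carry solute transporters. The brain itself is made of neurons, astrocytes, oligodendrocytes and microglia around vessels that are sealed by the blood-brain barrier. The pineal gland, which makes melatonin and shares many genes with the photoreceptors of the eye, hangs beneath the skull near the midline and is attached to the dura in rodents.

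The 3 meningeal libraries held 15478908, 18174269 and 16849645 gene counts and the 3 brain libraries held 27305294, 15352621 and 16134361. The whole series ran from 14208961 to 27305294. Its deepest library was brain 1, the first of these brain libraries, and the next deepest was meninges 2 at 18174269. Correlations of log2 expression across genes were 0.966 to 0.971 within meninges, 0.978 to 0.983 within brain and 0.630 to 0.692 between the tissues. Levels are given as counts per 1000000 (CPM) of TMM-scaled library totals, in the order of replicates 1, 2 and 3. Several libraries stood apart for particular genes. Meninges 2 was high in genes of skeletal muscle, with Ckm (muscle creatine kinase) at 0.681, 200 and 1.21 CPM in meninges, against 0.0758, 0.0668 and 0 CPM in brain. Ckm had a log2 fold change of 10.14 (adjusted p = 0.0729) with all libraries and of 4.06 (adjusted p = 0.00388) without meninges 2, and the 15 listed muscle genes summed to 41.7 to 6175 CPM in meninges, against 44 to 54.3 CPM in brain. Meninges 1 was low in genes of the choroid plexus, the tissue that secretes cerebrospinal fluid, with Ttr (transthyretin) at 6.25, 4158 and 5328 CPM in meninges, against 179, 568 and 552 CPM in brain. Meninges 3 was high in genes of peripheral and sensory neurons, with Prph (peripherin) at 0.805, 0.607 and 63.6 CPM in meninges, against 2.54, 1.67 and 0.93 CPM in brain. Prph had a log2 fold change of 3.61 (adjusted p = 0.183) with all libraries and of -1.27 (adjusted p = 0.0777) without meninges 3. The sensory sodium channel Scn10a, below the filter, had 0, 1 and 879 counts in meninges, against 10, 10 and 4 counts in brain. Brain 1 was higher than the other brain libraries in MHC class II and keratin genes, with Cd74 (the invariant chain) at 640, 455 and 540.5 CPM in meninges, against 25.9, 2.27 and 2.59 CPM in brain and Krt18 at 17.1, 27.6 and 29.3 CPM in meninges, against 28.3, 1.74 and 1.33 CPM in brain. The lists that turn on these libraries are given with and without them below, and the part of these genes in other results was not tested.

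**Figure D1:**
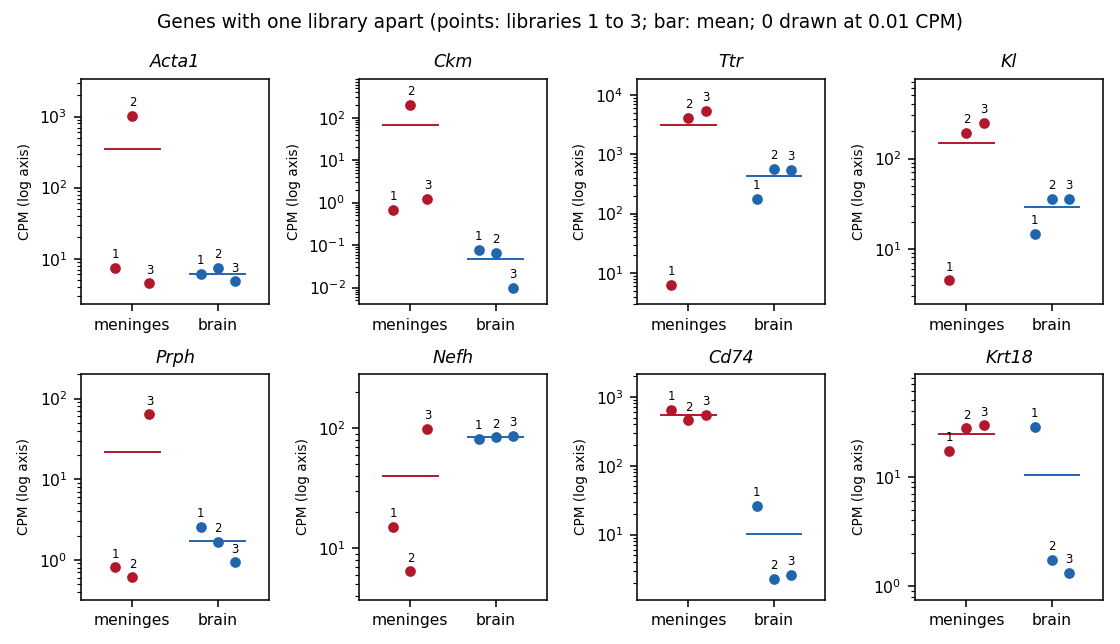
CPM per library on a log axis (0 drawn at 0.01 CPM) for 8 genes in which 1 library stood apart, with 3 meningeal libraries left of 3 brain libraries in each panel. Meninges 2 stands out for Acta1 and Ckm, meninges 1 for Ttr and Kl, meninges 3 for Prph and Nefh, and brain 1 for Cd74 and Krt18.

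The meninges and the brain differed in most measured genes, in both directions about equally. Of 18627 genes with enough counts to test, 13319 (71.5%) passed an adjusted p of 0.05 in edgeR's quasi-likelihood test, with 6563 (35.2%) higher and 6756 (36.3%) lower in meninges. Tested against a fold change of 2 rather than against no change, 7332 genes (39.4%) passed, 3660 (19.6%) higher and 3672 (19.7%) lower. In 14476 genes (77.7%) the 3 meningeal libraries did not overlap the 3 brain libraries, and the median log2 fold change of all tested genes was -0.02. All fold changes are meninges over brain on the log2 scale with the standard error after the ±, and a gene that is high in 1 tissue alone could enter the test through that tissue, so the counts of each gene list below are to be read against these shares of all genes. Among the genes given or drawn library by library here, Ttr, Kl, Acta1, Prph, Krt8, Krt18, Thbs4, Cldn5, Slc2a1, Nefh, Pvalb and Scn9a overlapped between the tissues, none of them called with all 6 libraries. So did Scn10a, which was not tested, and the others did not overlap. In bulk tissue fewer cells of a type and less RNA per cell cannot be told apart. Scaling to plain library totals shifted the median of all genes to 0.10 and gave 7154 genes higher and 6148 lower, so 53.8% of calls were higher under that scaling, against 49.3% under TMM.

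**Figure D2:**
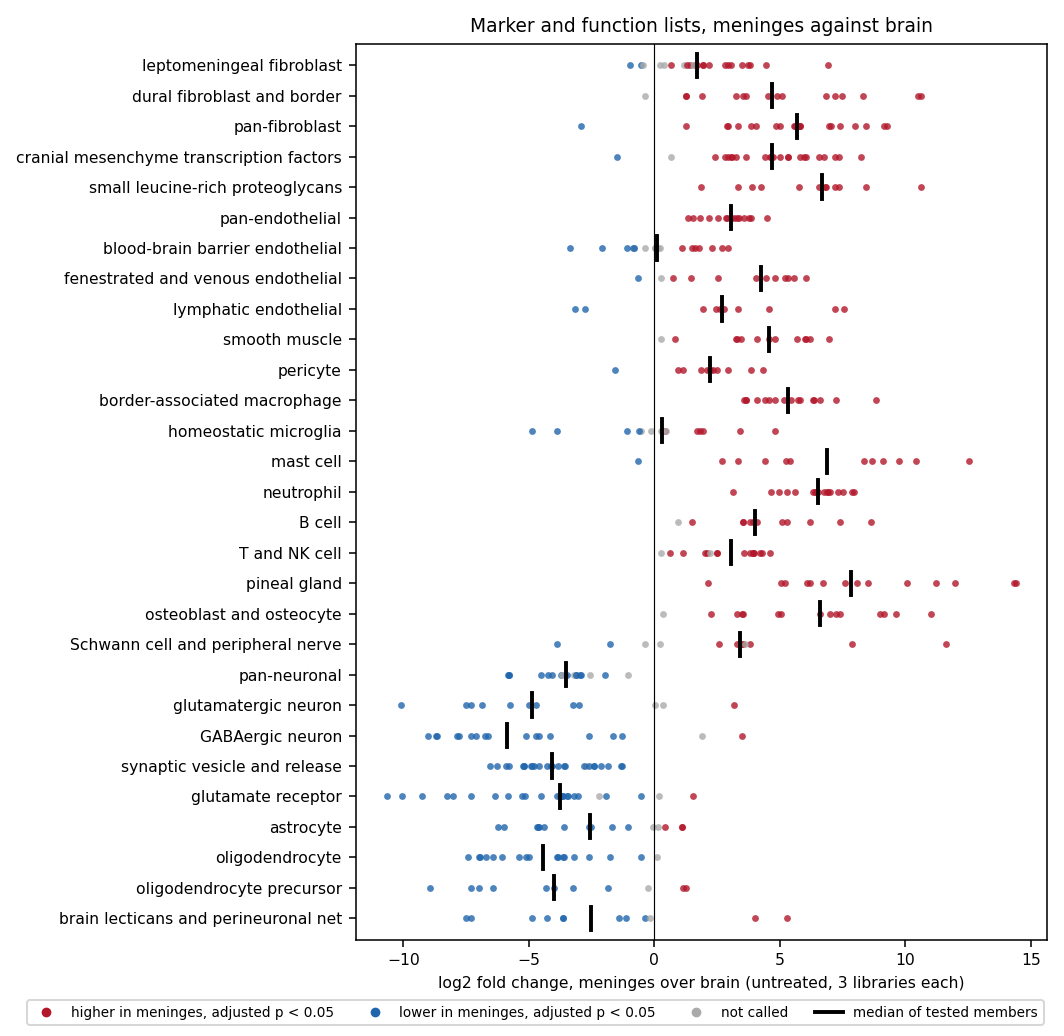
Log2 fold change of meninges over brain (horizontal axis) for the tested members of 29 gene lists, 1 row per list, with a point for each gene and a bar at the median of the list; genes with no counts in a tissue are drawn at their fitted value. Medians of fibroblast, small proteoglycan and border macrophage lists and of most vessel lists lie right of 0. Those of neuron, synapse and oligodendrocyte lists lie left of it. The blood-brain barrier list has a median of 0.09, and the list of brain lecticans and perineuronal nets has one of -2.53.

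Among genes called beyond 2-fold, Col1a1, a chain of type I collagen, was the highest per length in meninges. It had 24350, 34160 and 18380 CPM in meninges, against 58.3, 30.1 and 47.3 CPM in brain (log2 fold change 9.14 ± 0.44, adjusted p = 5.70e-06) and stood at 3905 FPKM (CPM divided by the exon length in kilobases) in meninges, against 6.89 FPKM in brain. The 9 next highest were Gpx3 (an extracellular glutathione peroxidase), Sparc (a collagen-binding matrix protein), Col1a2, Igfbp5 (a binding protein of insulin-like growth factors), Hbb-bs (haemoglobin), Mgp (an inhibitor of mineralisation), Cst3 (cystatin C), B2m (the light chain of MHC class I) and Bglap (osteocalcin), at 2362 FPKM for Gpx3 down to 929 FPKM for Bglap. Among the 10 highest in brain were Calm2 with 234 FPKM in meninges and 859.6 FPKM in brain, Cpe (a prohormone-processing enzyme), Calm3, Sparcl1, Kif5a (a neuronal kinesin), Atp1b1, Meg3, Ncdn and Ndrg4, down to 406 FPKM for Ndrg4. Calm2 and Calm3 encode the same protein, calmodulin, and share sequence, as do Bglap and its copy Bglap2 in part, so the split of reads within each family is uncertain.

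**Figure D3:**
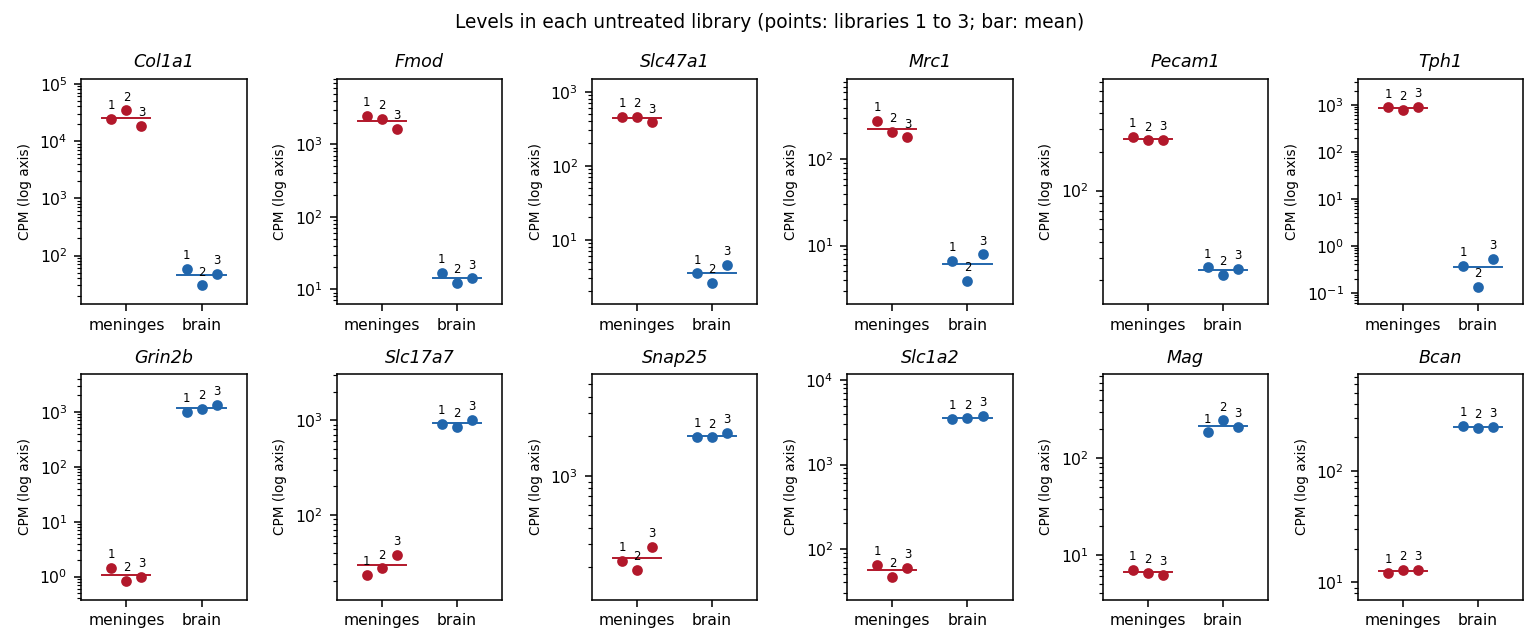
CPM per library on a log axis for 12 genes, with 3 meningeal libraries left of 3 brain libraries in each panel. Col1a1, Fmod, Slc47a1, Mrc1, Pecam1 and Tph1 are higher in all 3 meningeal libraries than in any brain library, and Grin2b, Slc17a7, Snap25, Slc1a2, Mag and Bcan are lower in all 3.

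Pineal and photoreceptor genes were among those with the largest fold changes toward meninges. Among genes with a mean of at least 50 CPM in the higher tissue, the 12 with the largest positive log2 fold change included Crx, Lhx4, Cplx4, H19, Rbp3, Cnpy1, Tph1, Bglap2, Chad, Comp and Tulp1. Of the 15 listed pineal genes 14 were tested, and all 14 rose beyond 2-fold (median log2 fold change 7.84, also with the genes at 0 set to their bound). The untested member, the transducin subunit Gngt1, had 6, 5 and 14 counts in meninges and 0 in each brain library. Summed over the list, the level was 3686 to 3874 CPM in meninges, against 224 to 229.7 CPM in brain. The taurine transporter Slc6a6, which many tissues use, made up nearly all of the brain sum with 1165, 1028 and 704 CPM in meninges, against 218, 215 and 225 CPM in brain.

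Melatonin is made from tryptophan in steps that start with tryptophan hydroxylase. Tph1, that enzyme, had 878, 771 and 911 CPM in meninges, against 0.379, 0.134 and 0.531 CPM in brain (log2 fold change 11.21 ± 0.29, adjusted p = 7.25e-08). Aanat, the acetyltransferase that sets the night rhythm of melatonin, had 63.7, 55.7 and 72 CPM in meninges, against 2.12, 2.81 and 0.797 CPM in brain (log2 fold change 5.04 ± 0.38, adjusted p = 3.46e-05). Asmt, the last enzyme of the pathway, had 41.8, 39.9 and 49.9 CPM in meninges, against 0.455, 0 and 0.0664 CPM in brain (log2 fold change 7.58 ± 0.56, adjusted p = 3.41e-05), and Ddc, the decarboxylase between them, had 121, 118 and 148 CPM in meninges, against 10.3, 9.49 and 8.37 CPM in brain. Per length, Tph1 stood at 138 FPKM in meninges, above Aanat at 38.4 FPKM and Asmt at 36.8 FPKM, and the 3 meningeal libraries differed little from each other for each of them.

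Genes best known from photoreceptors were also high in meninges. Rbp3, which carries retinoids between photoreceptor and pigment cells in the eye, had 616, 606 and 762 CPM in meninges, against 0.19, 0.20 and 0.0664 CPM in brain (log2 fold change 11.96 ± 0.24, adjusted p = 2.18e-08). Gnb3, a subunit of the cone G protein, had 484, 483 and 564 CPM in meninges, against 0.265, 0.802 and 0.465 CPM in brain, and Sag (arrestin of rods and pinealocytes) had 137, 181 and 215 CPM in meninges, against 1.55, 2.07 and 1.46 CPM in brain. Pde6c, the cone phosphodiesterase, had 93.5, 99 and 107 CPM in meninges, against 0.19, 0.267 and 0.399 CPM in brain. Cngb1, a subunit of the cyclic nucleotide-gated cation channel of rods, had 63, 64.6 and 75.2 CPM in meninges, against 1.06, 1.27 and 0.332 CPM in brain. The short-wavelength opsin Opn1sw was far lower, with 3.53, 4.69 and 3.96 CPM in meninges, against 0.0379, 0.134 and 0 CPM in brain. Crx, the homeodomain factor of photoreceptors and pinealocytes, had no count in brain, with 131, 149 and 167 CPM in meninges, against 0, 0 and 0 CPM in brain, so it was at least 2819-fold higher in meninges against a floor of 3 counts over the brain group. Lhx4, a LIM homeodomain factor, was likewise at least 2659-fold higher, with 139.7, 141 and 144 CPM in meninges, against 0, 0 and 0 CPM in brain. Cplx4, a complexin of retinal ribbon synapses, was at least 995-fold higher.

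CRX and OTX2 are known to bind TAATCC and its reverse complement GGATTA. RefSeq promoter windows on GRCm38.p6, which run from 250 bases before to 50 bases after a gene's start, were available for 9 of the 14 tested pineal genes, in 10 windows because Tph1 has 2, and for the untested Gngt1. The motif, searched on both strands as TAATCC or GGATTA, lay in 4 of the 10 windows of tested pineal genes (40%), in that of Gngt1, in 236 of 3300 windows (7.15%) of genes higher beyond 2-fold, in 161 of 3171 windows (5.08%) of genes lower beyond 2-fold and in 2320 of all 32851 windows (7.06%). The 5 pineal windows with a match are printed to show where the motif lies, 5′ to 3′ on the gene's strand, with the matched letters in capitals. A match is a description of the letters and no evidence of binding. Crx lies at chr7:15879906-15880205 (minus strand), Sag at chr1:87803430-87803729 (plus), Rbp3 at chr14:33953753-33954052 (plus), Cngb1 at chr8:95306536-95306835 (minus) and Gngt1 at chr6:3993758-3994057 (plus).
Crx: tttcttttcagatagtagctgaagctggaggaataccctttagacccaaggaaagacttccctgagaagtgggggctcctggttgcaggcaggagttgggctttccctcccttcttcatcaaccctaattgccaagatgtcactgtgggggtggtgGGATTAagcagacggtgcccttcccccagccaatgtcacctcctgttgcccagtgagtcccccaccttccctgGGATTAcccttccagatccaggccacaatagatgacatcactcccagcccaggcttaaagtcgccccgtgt
Sag: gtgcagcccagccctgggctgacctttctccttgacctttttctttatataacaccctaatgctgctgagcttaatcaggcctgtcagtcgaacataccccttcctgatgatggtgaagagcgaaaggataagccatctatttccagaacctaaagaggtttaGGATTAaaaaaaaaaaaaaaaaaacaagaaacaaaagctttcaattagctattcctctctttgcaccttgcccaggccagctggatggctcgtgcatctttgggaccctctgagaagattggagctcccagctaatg
Rbp3: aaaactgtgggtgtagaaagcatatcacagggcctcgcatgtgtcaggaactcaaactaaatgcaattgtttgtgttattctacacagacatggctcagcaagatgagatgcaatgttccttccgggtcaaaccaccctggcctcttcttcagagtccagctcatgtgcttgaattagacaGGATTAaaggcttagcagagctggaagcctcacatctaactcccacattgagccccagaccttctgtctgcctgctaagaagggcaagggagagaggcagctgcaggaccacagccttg
Cngb1: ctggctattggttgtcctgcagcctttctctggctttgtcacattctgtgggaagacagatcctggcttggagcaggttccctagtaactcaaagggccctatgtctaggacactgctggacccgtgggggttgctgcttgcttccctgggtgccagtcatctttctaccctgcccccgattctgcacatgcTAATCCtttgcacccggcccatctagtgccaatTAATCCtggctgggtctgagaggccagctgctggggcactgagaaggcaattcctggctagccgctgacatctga
Gngt1: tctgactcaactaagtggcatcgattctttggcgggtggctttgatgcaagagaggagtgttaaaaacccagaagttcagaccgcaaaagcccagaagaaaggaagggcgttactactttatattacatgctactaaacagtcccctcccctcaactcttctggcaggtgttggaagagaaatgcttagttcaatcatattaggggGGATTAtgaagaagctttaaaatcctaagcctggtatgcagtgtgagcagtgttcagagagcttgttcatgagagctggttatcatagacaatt
Crx and Cngb1 hold the motif in 2 places each, and Sag, Rbp3 and Gngt1 in 1 place each. No match was found in the windows of Tph1, Opn1sw, Lhx4 and Isl2. The bases before the start of Asmt are not resolved in its window, so no match could be seen there.

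Fibroblast genes were higher in meninges almost throughout. Of the 22 pan-fibroblast genes, 21 rose beyond 2-fold and 1 fell, with a median log2 fold change of 5.68. Loxl1, which cross-links elastin, had 362, 344 and 265 CPM in meninges, against 1.82, 2.2 and 1.79 CPM in brain (log2 fold change 7.38 ± 0.18, adjusted p = 3.08e-08). Serpinf1, the secreted pigment epithelium factor, had 1326, 1450 and 1045 CPM in meninges, against 11.2, 9.09 and 10.5 CPM in brain. Fbln1, a basement membrane glycoprotein, had 625, 556 and 568 CPM in meninges, against 11.4, 8.82 and 11.4 CPM in brain. The member that fell, Thy1, is also a surface protein of neurons, and it had 68.6, 61.6 and 92.4 CPM in meninges, against 551, 547 and 568 CPM in brain (log2 fold change -2.90 ± 0.15, adjusted p = 9.94e-07).

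The median fold change of dural markers was larger than that of leptomeningeal markers, a difference that was not tested. Of the 16 tested dural genes, 15 rose and none fell (median 4.71), a count of falls that was 1 without meninges 2. Fmod, a proteoglycan that organises collagen fibrils in tendon-like tissue, had 2457, 2259 and 1618 CPM in meninges, against 17, 12.2 and 14.1 CPM in brain (log2 fold change 7.19 ± 0.24, adjusted p = 1.74e-07). Smoc2, a calcium-binding matrix protein, had 297, 289 and 251 CPM in meninges, against 11.8, 11.7 and 13.3 CPM in brain. Matn4, a matrilin, had 459, 414 and 324 CPM in meninges, against 10.3, 11.5 and 13 CPM in brain, and 149 bases of its exons overlap the opposite-strand gene Rbpjl. Tnmd, a membrane protein of tendon and ligament cells, had 69.2, 66.6 and 45.4 CPM in meninges, against 0.493, 0.401 and 0.664 CPM in brain. Of these markers Thbs4 alone was not called, with 3.22, 10.3 and 3.91 CPM in meninges, against 5.76, 7.88 and 8.9 CPM in brain (log2 fold change -0.37 ± 0.45, adjusted p = 0.485).

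Of the 23 leptomeningeal genes (pia and arachnoid), 16 rose and 2 fell, with a median of 1.69. Slc47a1, an exporter of organic cations, had 459.5, 462 and 387 CPM in meninges, against 3.49, 2.6 and 4.58 CPM in brain (log2 fold change 6.93 ± 0.22, adjusted p = 1.27e-07). Cdh1, the E-cadherin of the arachnoid barrier, had 45.6, 42.1 and 45.5 CPM in meninges, against 2.27, 2.14 and 1.59 CPM in brain (log2 fold change 4.45 ± 0.16, adjusted p = 1.29e-07). Aldh1a2, which makes retinoic acid, had 51.9, 48.3 and 47.3 CPM in meninges, against 6.48, 6.68 and 6.11 CPM in brain. Foxp2, a forkhead factor of some meningeal and neuronal cells, had 131, 113 and 98.5 CPM in meninges, against 27.8, 31.9 and 29.9 CPM in brain. The pair that fell was Nnat (100.5, 61.3 and 70.7 CPM in meninges, against 168, 145 and 143 CPM in brain) and Cldn11, a claudin that oligodendrocytes also use in myelin (134, 124 and 105 CPM in meninges, against 150.4, 201 and 168 CPM in brain), and neither passed when all 27 libraries were fitted together. Krt8 and Krt18 (simple epithelial keratins) and S100a6 were not called with all 6 libraries, but without brain 1 they rose, with log2 fold changes of 4.14, 4.0 and 3.46. Brain 1 overlapped or exceeded meninges for Krt8, with 12.6, 15 and 11.7 CPM in meninges, against 27.7, 0.935 and 0.531 CPM in brain.

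Transcription factors of cranial mesenchyme marked the same tissue. Of 24 tested, 22 rose beyond 2-fold and 1 fell, with a median of 4.69. Foxc1, which meningeal development in the mouse requires, had 166, 174 and 156 CPM in meninges, against 6.56, 6.88 and 6.71 CPM in brain (log2 fold change 4.62 ± 0.09, adjusted p = 1.85e-08). Twist1, needed for cranial neural crest and sutures, had 63.7, 78.4 and 57.4 CPM in meninges, against 0.72, 0.601 and 0.465 CPM in brain. Foxd1 had 115, 112 and 88.4 CPM in meninges, against 0.607, 0.468 and 0.864 CPM in brain, and Prrx1, a factor of limb and skull mesenchyme, had 296, 286 and 244 CPM in meninges, against 9.82, 7.75 and 8.3 CPM in brain. Runx1t1, a corepressor that neurons also express, was the one that fell, with 13.7, 12.1 and 14.8 CPM in meninges, against 39.3, 35.1 and 39.2 CPM in brain.

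Collagen and small proteoglycan genes were mostly higher in meninges. Of the 11 fibrillar collagens 10 rose (median 4.05), and Col1a2 was the farthest apart, with 23970, 31400 and 17360 CPM in meninges, against 43.7, 30.5 and 44.5 CPM in brain (log2 fold change 9.26 ± 0.35, adjusted p = 6.18e-07). Col5a2, which nucleates type I fibrils, had 1292, 1411 and 799 CPM in meninges, against 12, 7.28 and 11 CPM in brain. Of 31 other tested collagens, 26 rose and 2 fell (median 2.45). Col8a1, a short-chain collagen, had 664, 631 and 573 CPM in meninges, against 7.7, 8.82 and 10.2 CPM in brain, and Col14a1, which coats fibrils, had 369, 326 and 275 CPM in meninges, against 2.05, 1.8 and 2.39 CPM in brain. The collagens that fell were Col25a1, a transmembrane collagen of neurons, with 11.5, 9.65 and 10.02 CPM in meninges, against 92.1, 108 and 96.9 CPM in brain, and Col19a1, which interneurons express, with 0, 0 and 0.11 CPM in meninges, against 30.5, 28.5 and 29.7 CPM in brain. Col19a1 had 2 counts over the 3 meningeal libraries, a ratio of 720.7-fold lower in meninges (95% exact interval 199.2 to 5956, counting error only).

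All 12 tested small leucine-rich proteoglycans rose beyond 2-fold (median 6.67). Bgn (biglycan) had 2691, 2641 and 2084 CPM in meninges, against 17.1, 11.9 and 16.5 CPM in brain (log2 fold change 7.34 ± 0.21, adjusted p = 6.54e-08). Prelp had 230.2, 229.9 and 199 CPM in meninges, against 12.1, 11.4 and 11.5 CPM in brain, with 350 bases of exon shared with the opposite-strand gene Gm15851. The matrix of the brain went the other way. Of 12 tested genes of lecticans and perineuronal nets, the lattice around neurons, 9 fell and 2 rose (median -2.53). Ncan (neurocan) had 2.35, 1.27 and 1.82 CPM in meninges, against 317, 324 and 340.3 CPM in brain (log2 fold change -7.50 ± 0.20, adjusted p = 4.97e-08), Bcan (brevican) had 12.3, 12.9 and 13 CPM in meninges, against 254, 243 and 250.2 CPM in brain, and the link protein Hapln4 had 9.72, 10.9 and 9.85 CPM in meninges, against 126, 134 and 124 CPM in brain. The members that rose were Tnc (tenascin C), with 515, 456 and 297 CPM in meninges, against 14.1, 8.35 and 9.9 CPM in brain, and Acan (aggrecan, also the main proteoglycan of cartilage), with 113, 97 and 49.9 CPM in meninges, against 4.74, 6.95 and 4.38 CPM in brain.

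Elastic fibre and matricellular genes rose in 24 of 27 members and fell in 1 (median 4.81), and in 2 without meninges 1 or meninges 2. Mfap4, a microfibril protein, had 748, 790.4 and 583 CPM in meninges, against 2.08, 1.47 and 1.73 CPM in brain (log2 fold change 8.62 ± 0.20, adjusted p = 3.08e-08), with 89 bases of exon shared with Mapk7. Ccn2 (connective tissue growth factor) had 763, 699.5 and 822 CPM in meninges, against 17.6, 14.8 and 18.1 CPM in brain, and 665 bases of its exons overlap Gm15270 on the opposite strand. Efemp1, a fibulin, had 185, 170.5 and 150 CPM in meninges, against 6.94, 6.68 and 8.77 CPM in brain. The member that fell was Sparcl1, an astrocyte protein that promotes synapses, with 273, 248 and 249 CPM in meninges, against 1643, 1703 and 1723 CPM in brain (log2 fold change -2.72 ± 0.09, adjusted p = 8.55e-08).

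Growth factor genes divided by family. Of 18 tested BMP and TGF-beta ligands, 15 rose and 1 fell (median 2.42). Gdf10 (BMP3B) had 741, 746 and 477 CPM in meninges, against 6.48, 5.41 and 5.71 CPM in brain (log2 fold change 6.79 ± 0.23, adjusted p = 2.10e-07). Tgfb3 had 169, 161 and 125 CPM in meninges, against 9.74, 8.35 and 10.5 CPM in brain, and Bmp6 and Bmp7 had log2 fold changes of 2.82 and 2.71. Inhba, the activin A subunit, which neurons induce with activity, fell with 5.08, 4.58 and 3.69 CPM in meninges, against 27.9, 18.2 and 17.3 CPM in brain. Their secreted antagonists rose in 9 of 14 and fell in 4 (median 2.15). Among them Nbl1 had 459, 433 and 460.3 CPM in meninges, against 39.4, 38.3 and 36.4 CPM in brain, Fstl1 (a follistatin-like protein) had 881, 796 and 748 CPM in meninges, against 43.5, 37.1 and 37.4 CPM in brain, and Chrd (chordin), which fell, had 20.8, 25 and 18.1 CPM in meninges, against 49.4, 37.4 and 43.5 CPM in brain.

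Wnt ligands split almost evenly, 7 higher and 8 lower of 16 tested (median -0.66). Wnt5b had 30.1, 25.6 and 26.5 CPM in meninges, against 2.12, 1.2 and 2.06 CPM in brain (log2 fold change 3.91 ± 0.22, adjusted p = 1.30e-06), and Wnt10b, a bone-forming Wnt, had 22.5, 24.2 and 17.8 CPM in meninges, against 1.59, 1.34 and 2.99 CPM in brain. Wnt7a and Wnt7b, which induce and keep the blood-brain barrier, fell. Wnt7b had 0.124, 0.0552 and 0.11 CPM in meninges, against 32.6, 33.1 and 26.4 CPM in brain (log2 fold change -8.23 ± 0.26, adjusted p = 8.04e-08), and Wnt7a had 0.0619, 0.166 and 0.275 CPM in meninges, against 13.7, 11.2 and 12.7 CPM in brain. Wnt antagonists rose in 8 of 11 and fell in 2 (median 3.54), led by Sfrp4 with 257, 225 and 233 CPM in meninges, against 2.62, 1.67 and 1.93 CPM in brain (log2 fold change 6.81 ± 0.17, adjusted p = 3.76e-08). Wif1 had 17.9, 22.2 and 18 CPM in meninges, against 1.18, 1.27 and 1.2 CPM in brain. The pair that fell, Frzb and Dkk3, had log2 fold changes of -0.72 and -0.54, both within 2-fold.

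All 12 tested members of the insulin-like growth factor system were called, 10 higher and 2 lower (median 3.84). Igfbp5 had 10330, 9957 and 8404 CPM in meninges, against 157, 189 and 168 CPM in brain (log2 fold change 5.80 ± 0.14, adjusted p = 3.24e-08). Igfbp4 had 1040, 1018 and 1049 CPM in meninges, against 77.4, 65.2 and 66.1 CPM in brain, and Igfbp7, a vessel-associated binding protein, had 343, 333 and 318 CPM in meninges, against 18.2, 12.4 and 14.8 CPM in brain. The lower pair was Igfbpl1, with 1 CPM or less in every meningeal library, and the receptor Igf1r with a log2 fold change of -0.23. Both lost their call without meninges 2 or without brain 3, Igfbpl1 also without brain 2, and Igf1r also without brain 1, without the filter, with plain library totals or upper quartile scaling, with a replicate block and when all 27 libraries were fitted. Retinoid genes rose in 15 of 19 and fell in 1 (median 2.13). The retinoic acid receptor Rarg had 92.7, 102 and 94.6 CPM in meninges, against 10.3, 8.08 and 7.24 CPM in brain (log2 fold change 3.48 ± 0.14, adjusted p = 2.24e-07), and the related receptor Rara had 53.5, 54.6 and 57.9 CPM in meninges, against 13.2, 13.2 and 13.7 CPM in brain. The member that fell, Aldh1a1, had 40.4, 34 and 24.5 CPM in meninges, against 52.8, 52.6 and 44.6 CPM in brain and was not called without meninges 2 or without brain 2.

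Chemokines rose in 13 of 24 and fell in 3 (median 2.51). Cxcl12, which holds blood precursors in bone marrow and borders, had 376, 355 and 361 CPM in meninges, against 74.1, 84.2 and 81.5 CPM in brain (log2 fold change 2.19 ± 0.08, adjusted p = 1.79e-07). Cxcl16 had 34.9, 29.3 and 29.5 CPM in meninges, against 2.12, 1.0 and 1.26 CPM in brain, with 552 exon bases shared with Zmynd15, and Ccl6 had 42.5, 28.9 and 37 CPM in meninges, against 2.39, 1.2 and 0.864 CPM in brain. The neuronal ligand of microglia, Cx3cl1, fell with 71.8, 65.6 and 71.3 CPM in meninges, against 686, 672 and 716 CPM in brain (log2 fold change -3.31 ± 0.09, adjusted p = 3.97e-08). Ccl27a fell with 7.62, 7.83 and 10.2 CPM in meninges, against 60.9, 76.5 and 61.7 CPM in brain.

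Carriers listed for the border were mostly higher in meninges, and listed carriers of neurotransmitters were mostly lower. Of 16 carriers listed for the border, 11 rose and 2 fell (median 1.71). Slc26a7, an anion exchanger, had 225, 209 and 143 CPM in meninges, against 3.49, 2.6 and 3.72 CPM in brain (log2 fold change 5.87 ± 0.24, adjusted p = 8.17e-07). Slc38a2, a neutral amino acid carrier, had 2491, 2527 and 1899 CPM in meninges, against 192, 175 and 186 CPM in brain, and Slc13a4, a sulfate carrier, had 69.4, 95 and 115 CPM in meninges, against 10.6, 14 and 13.3 CPM in brain. Slc7a11 and Slc5a5 fell, with log2 fold changes of -0.83 and -1.04. Of 21 neurotransmitter carriers, 15 fell and 3 rose (median -2.15). Slc1a2, the main glutamate carrier of astrocytes, had 64.5, 46.7 and 59.2 CPM in meninges, against 3452, 3534 and 3780 CPM in brain (log2 fold change -5.98 ± 0.16, adjusted p = 4.08e-08). Slc17a7, the vesicular glutamate carrier of cortex, had 23.1, 27.3 and 37.9 CPM in meninges, against 921, 851 and 1014 CPM in brain. Slc12a5, the neuronal chloride exporter, had 129.8, 140.3 and 142 CPM in meninges, against 825, 795 and 802 CPM in brain. The carriers of noradrenaline and serotonin went the other way. Slc6a2 had 2.91, 3.59 and 2.04 CPM in meninges, against 0, 0 and 0 CPM in brain, at least 53.4-fold higher in meninges, and Slc6a4, the serotonin carrier, had 7.06, 6.12 and 6.44 CPM in meninges, against 0.341, 0 and 0 CPM in brain.

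Of 22 tested tight junction genes 12 rose and 5 fell (median 0.95). The endothelial adhesion molecule Esam had 71.3, 72.4 and 68.8 CPM in meninges, against 17.9, 19.9 and 23.2 CPM in brain (log2 fold change 1.80 ± 0.11, adjusted p = 2.20e-06). Cldn19, a claudin of Schwann cells, had 6.38, 9.65 and 12 CPM in meninges, against 0.417, 0.334 and 0.332 CPM in brain. Cldn5, the claudin that seals brain vessels, was not called, with 35.4, 38.4 and 44.7 CPM in meninges, against 39.6, 35.9 and 39.3 CPM in brain (log2 fold change 0.04 ± 0.11, adjusted p = 0.73). All 13 tested connexins and pannexins were called, 8 higher and 5 lower (median 1.10). Gjb2, a connexin of leptomeningeal cells, had 83.8, 87 and 61.5 CPM in meninges, against 7.39, 8.15 and 5.05 CPM in brain, and Gja5, an arterial connexin, had 10.7, 9.38 and 10.6 CPM in meninges, against 0.531, 0.401 and 0.598 CPM in brain. The oligodendrocyte connexins fell, Gjc3 with 5.32, 6.01 and 7.38 CPM in meninges, against 76.7, 95.9 and 94.1 CPM in brain and Gjb1 with 0.743, 0.607 and 1.05 CPM in meninges, against 12.4, 14.8 and 11.8 CPM in brain. Gjb5 was below the filter, with 27 counts in brain 1 and none in brain 2 and brain 3.

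Pan-endothelial genes were higher in meninges, while genes of the blood-brain barrier went both ways, as all tested genes did. All 15 pan-endothelial genes rose beyond 2-fold (median 3.05). Tie1, an endothelial receptor kinase, had 136, 133 and 132 CPM in meninges, against 13.9, 13.5 and 13.6 CPM in brain (log2 fold change 3.29 ± 0.07, adjusted p = 3.02e-08). Pecam1, the junction protein CD31, had 262, 246 and 249 CPM in meninges, against 25.3, 22.2 and 24.6 CPM in brain, and Cdh5, the endothelial cadherin, had 228, 206 and 207 CPM in meninges, against 18.7, 14.8 and 20.3 CPM in brain. Of 18 barrier genes 7 rose, 5 fell and 6 were not called (median 0.09), beside 35.2% higher and 36.3% lower of all tested genes. Mfsd2a, the lipid carrier that suppresses transcytosis in brain endothelium, fell with 1.24, 2.04 and 2.59 CPM in meninges, against 17.1, 23.1 and 20.8 CPM in brain (log2 fold change -3.36 ± 0.27, adjusted p = 9.87e-06). Spock2 fell with 249.9, 222 and 259.5 CPM in meninges, against 1018, 1027 and 1057 CPM in brain. Slc2a1, the glucose carrier of barrier vessels, was not called, with 99.4, 95 and 112 CPM in meninges, against 108, 99.5 and 92.9 CPM in brain. Abcg2, a drug exporter, rose with 99.5, 93.4 and 82.5 CPM in meninges, against 18.3, 18.2 and 19.7 CPM in brain, and Itm2a with 389.9, 382 and 244 CPM in meninges, against 43.2, 48 and 42.9 CPM in brain.

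Genes of fenestrated and venous vessels rose in 10 of 12 (median 4.25). Plvap, which forms the diaphragms of fenestrae, had 252, 248 and 274 CPM in meninges, against 9.32, 5.41 and 5.91 CPM in brain (log2 fold change 5.21 ± 0.22, adjusted p = 8.01e-07). Vwf, the clotting factor of venous endothelium, had 676, 539 and 654 CPM in meninges, against 20.6, 21 and 24.5 CPM in brain, and Esm1 had 40.5, 39.9 and 40.8 CPM in meninges, against 1.02, 0.534 and 0.93 CPM in brain. Ackr1, a venous chemokine receptor, fell with 19.8, 17.6 and 30.6 CPM in meninges, against 34.1, 32.1 and 40.4 CPM in brain (log2 fold change -0.65 ± 0.21, adjusted p = 0.0257), but shares 361 exon bases with Cadm3 on the same strand and was not called without meninges 1, meninges 2 or brain 3, or with plain library totals. Lymphatic genes rose in 8 and fell in 2 of 10 (median 2.70). Flt4, the receptor of VEGF-C, had 42.4, 47.7 and 48.6 CPM in meninges, against 5.0, 4.34 and 4.38 CPM in brain (log2 fold change 3.33 ± 0.13, adjusted p = 1.61e-07), and Lyve1, which border macrophages also carry, had 35, 35.5 and 29.8 CPM in meninges, against 1.44, 1.34 and 1.4 CPM in brain. Prox1, the master factor of lymphatic fate, fell with 3.71, 3.25 and 5.06 CPM in meninges, against 33.7, 42.1 and 32 CPM in brain (log2 fold change -3.16 ± 0.20, adjusted p = 2.45e-06), and so did Reln with 19.2, 16.8 and 19.6 CPM in meninges, against 124, 108 and 145 CPM in brain. Prox1 and Reln are also genes of brain neurons.

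Mural cell genes rose as well. Of 13 smooth muscle genes 12 rose and none fell (median 4.57). Acta2, smooth muscle actin, had 468, 563 and 459.7 CPM in meninges, against 11.1, 7.55 and 9.83 CPM in brain (log2 fold change 5.70 ± 0.18, adjusted p = 8.73e-08), and Mylk, the myosin light chain kinase, had 845, 856 and 788 CPM in meninges, against 14.3, 13.4 and 10.6 CPM in brain. Myl9 had 206, 243 and 202 CPM in meninges, against 6.1, 9.09 and 7.91 CPM in brain. Promoter windows of 10 of these genes were searched for the strict CArG box, CCWWWWWWGG with W as A or T, the site of serum response factor. Only the window of Myl9 held this strict form, against 1.63% of all windows. Forms with another base inside the box, such as ccctatatgg in the window of Acta2, were not searched for. The lack of a match therefore does not show that a window lacks such a site. Of 12 pericyte genes 11 rose and 1 fell (median 2.22). Rgs5 had 556, 592 and 515 CPM in meninges, against 106, 118 and 131 CPM in brain, and Pdgfrb, the receptor that recruits pericytes and also marks fibroblasts, had 514, 469 and 380.2 CPM in meninges, against 26.7, 33.9 and 34.4 CPM in brain (log2 fold change 3.84 ± 0.16, adjusted p = 2.42e-07). The member that fell was Atp13a5, a marker of brain pericytes, with 6.25, 4.69 and 4.9 CPM in meninges, against 13.5, 15.1 and 18.3 CPM in brain (log2 fold change -1.56 ± 0.19, adjusted p = 1.34e-04).

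All 16 genes of border-associated macrophages rose beyond 2-fold (median 5.31). Mrc1, the mannose receptor CD206, had 278, 209.5 and 180.4 CPM in meninges, against 6.6, 3.87 and 7.91 CPM in brain (log2 fold change 5.18 ± 0.32, adjusted p = 1.95e-05). Pf4, a chemokine of these macrophages and of platelets, had 39, 45.3 and 44.9 CPM in meninges, against 0.531, 0.401 and 0.598 CPM in brain, and Clec10a had 44.9, 36.4 and 44.9 CPM in meninges, against 0.455, 0.668 and 0.465 CPM in brain. Cd163, the haemoglobin scavenger, had 123, 90.9 and 81.9 CPM in meninges, against 4.4, 3.41 and 6.11 CPM in brain. The homeostatic microglial genes went both ways, with 6 higher, 4 lower and 5 not called of 15 (median 0.32). Of all tested genes, 35.2% were higher and 36.3% lower. P2ry12, a purinergic receptor of resting microglia, fell with 11.5, 13.8 and 11.5 CPM in meninges, against 25.2, 23.7 and 30.3 CPM in brain (log2 fold change -1.10 ± 0.14, adjusted p = 1.85e-04). Slc2a5, a fructose carrier of microglia, fell with 0.124, 0.166 and 0.055 CPM in meninges, against 3.87, 3.74 and 3.12 CPM in brain, and Sall3 fell with 0.124, 0.331 and 0.495 CPM in meninges, against 3.75, 5.75 and 5.18 CPM in brain. Tmem119 had 197, 221 and 163 CPM in meninges, against 16.9, 18.9 and 18.9 CPM in brain (log2 fold change 3.41 ± 0.13, adjusted p = 1.67e-07) and Olfml3 had 602, 542 and 384 CPM in meninges, against 18.4, 16.6 and 20.1 CPM in brain, and both are also known from bone or mesenchymal cells. Csf1r, the growth factor receptor of all macrophages, rose with 342, 283 and 279 CPM in meninges, against 82.9, 75.7 and 98.5 CPM in brain, and 873 of its exon bases overlap Hmgxb3.

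Antigen presentation genes rose in meninges. All 9 tested MHC class II genes rose (median 4.55, and 6.52 without brain 1, where 11 genes were tested). Cd74 had a log2 fold change of 5.68 ± 1.22 and of 7.80 without brain 1. H2-DMb1, which helps load peptides, had 38.4, 32.4 and 37.9 CPM in meninges, against 2.08, 1.07 and 1.33 CPM in brain (log2 fold change 4.55 ± 0.24, adjusted p = 8.18e-07). Ciita, the master activator of the class, had 19.1, 15.9 and 17.2 CPM in meninges, against 4.02, 4.28 and 4.58 CPM in brain. MHC class I genes rose in 12 of 15 (median 2.79), a count that was 7 without brain 3, without meninges 1 or without meninges 3. Tapbp (tapasin) had 268, 234 and 316 CPM in meninges, against 41.5, 19.3 and 27.8 CPM in brain, with 904 exon bases shared with Gm19412, and Tap2, the peptide transporter, had 38, 39.4 and 47.7 CPM in meninges, against 10.7, 4.81 and 5.71 CPM in brain. B2m varied within each tissue, with 1094, 658 and 1434 CPM in meninges, against 147, 57.4 and 117 CPM in brain (log2 fold change 3.31 ± 0.49, adjusted p = 0.00211). H2 genes of class I are close copies of each other, so the split of reads between them is uncertain.

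Interferon-stimulated genes varied between the libraries within each tissue. Of 24 tested, 22 rose and none fell (median 3.18), but only 8 rose without brain 1, 10 without brain 2, 9 without meninges 1 and 10 without meninges 3. Irf7, the factor that amplifies the response, had 111, 21.9 and 281 CPM in meninges, against 7.35, 3.74 and 21.3 CPM in brain (log2 fold change 3.69 ± 1.25, adjusted p = 0.0518). Mx1, an antiviral GTPase, had 32.5, 12.7 and 41.3 CPM in meninges, against 1.4, 0.601 and 1.59 CPM in brain, and Isg15 had 59.2, 20.8 and 134 CPM in meninges, against 7.13, 1.47 and 8.44 CPM in brain. For Irf7 meninges 2 was the lowest meningeal library and brain 3 the highest brain library, and these libraries nearly met. The spread ran in parallel, as Irf7, Mx1 and Isg15 were highest in replicate 3 and lowest in replicate 2 in both tissues. Each meningeal library was well above the brain library of the same number for these genes. The calls did not use the numbers as pairs, and the cause of the parallel spread was not tested. Complement genes rose in 14 of 18 and fell in 2 (median 2.78), and only 1 fell without meninges 2, meninges 3, brain 1 or brain 3. Serping1, the C1 inhibitor, had 607, 505 and 508 CPM in meninges, against 7.73, 5.54 and 6.11 CPM in brain (log2 fold change 6.37 ± 0.17, adjusted p = 4.21e-08), C5ar1, the receptor of the fragment C5a, had 21.2, 18.3 and 17.9 CPM in meninges, against 0.91, 0.668 and 0.598 CPM in brain, and C1qc had 205, 148 and 227 CPM in meninges, against 25.2, 27.5 and 29.8 CPM in brain.

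Genes of mast cells and lymphocytes were mostly higher in meninges. Mast cell genes rose in 11 of 12 and fell in 1 (median 6.87, or 5.54 with genes at 0 set to their bound). Cma1, the chymase of connective tissue mast cells, had 55.2, 53.6 and 44.2 CPM in meninges, against 0.114, 0 and 0 CPM in brain, a ratio of 1035-fold over the 3 counts in brain (95% exact interval 353.6 to 5020). Mcpt4, another mast cell protease, had 66.9, 68.5 and 47.4 CPM in meninges, against 0.19, 0.0668 and 0 CPM in brain (log2 fold change 9.09 ± 0.42, adjusted p = 1.09e-06). Kit, which fell with 45.6, 34.9 and 27.7 CPM in meninges, against 56.6, 55.5 and 56.8 CPM in brain, is also a gene of brain neurons. T and NK cell genes rose in 14 of 16 and B cell genes in 11 of 12, with none lower and medians of 3.05 and 4.01. Nkg7, a granule protein of NK and cytotoxic T cells, had 2.29, 2.37 and 3.19 CPM in meninges, against 0.19, 0 and 0.0664 CPM in brain. Ebf1, a factor of B cells that vessels and fibroblasts also express, had 106, 100.2 and 95 CPM in meninges, against 9.32, 7.62 and 9.04 CPM in brain, while Blk, a kinase of B cells, had 3.03, 2.59 and 3.25 CPM in meninges, against 0.114, 0.0668 and 0 CPM in brain.

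All 17 tested neutrophil genes rose (median 6.51, or 6.44 with bounds), and meninges 3 was the highest library for both genes named here. S100a8, a calcium-binding alarmin, had 25.8, 25.1 and 69.96 CPM in meninges, against 0.265, 0.334 and 0.531 CPM in brain, and Retnlg had 12.5, 10.5 and 18.1 CPM in meninges, against 0.0758, 0 and 0.266 CPM in brain. Of 16 dendritic cell and monocyte genes 11 rose and 4 fell (median 3.06), with 2 lower without brain 1, brain 3 or meninges 3 and with plain library totals. Itgax, the integrin CD11c, had 14.9, 9.6 and 13 CPM in meninges, against 0.531, 0.334 and 0.266 CPM in brain (log2 fold change 4.96 ± 0.33, adjusted p = 3.25e-06), and the lectin Cd209a had 12.2, 14.2 and 16.9 CPM in meninges, against 0.19, 0 and 0.133 CPM in brain. Sirpa and Flt3 fell, Sirpa with 147, 116 and 151 CPM in meninges, against 422, 404 and 480.2 CPM in brain and Flt3 with 5.2, 4.36 and 4.68 CPM in meninges, against 12.3, 15.1 and 10.2 CPM in brain, and both are also made by brain neurons.

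Neuronal genes were low in meninges but not absent. Of 18 pan-neuronal genes 14 fell, none rose and 4 were not called (median -3.52), and 17 fell without meninges 3 (median -4.56). Over the libraries left out, the number that fell lay between 11 and 17. Map2, the dendritic microtubule protein, had 104, 109 and 124 CPM in meninges, against 1379, 1405 and 1623 CPM in brain (log2 fold change -3.71 ± 0.12, adjusted p = 8.16e-08). Gap43, a protein of growing axons, had 8.23, 7.12 and 11.8 CPM in meninges, against 203, 212 and 207 CPM in brain. Uchl1, an abundant neuronal hydrolase, was not called with 4.02, 3.03 and 51.4 CPM in meninges, against 267, 243 and 243 CPM in brain (log2 fold change -3.68 ± 1.30, adjusted p = 0.0576), and without meninges 3 it fell with a log2 fold change of -6.13 (adjusted p = 6.54e-09). Nefh, the heavy neurofilament of large axons, had 15.1, 6.4 and 98.8 CPM in meninges, against 81.7, 84.4 and 86.5 CPM in brain, was not called with all libraries and fell without meninges 3, with a log2 fold change of -2.94. As a percentage of the brain mean, the median pan-neuronal gene stood at 5.36%, 3.95% and 14.1% in meninges 1, 2 and 3, and the synaptic genes at 4.78%, 3.74% and 7.75%.

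Glutamatergic neuron genes fell in 9 of 12 and rose in 1 (median -4.86), and rose in 2 without meninges 3 and with plain library totals. Nrgn (neurogranin) had 7.3, 7.28 and 7.71 CPM in meninges, against 204, 196 and 192 CPM in brain (log2 fold change -4.73 ± 0.08, adjusted p = 1.85e-08), and Tbr1, a factor of cortical projection neurons, had 0.681, 0.331 and 0.771 CPM in meninges, against 112, 105 and 107 CPM in brain. Neurod6 had 3 counts in meninges, with 0.186, 0 and 0 CPM in meninges, against 55.5, 74.5 and 81.3 CPM in brain, a ratio of 1089-fold lower (95% exact interval 372.3 to 5283). Neurod1, which pinealocytes also express, rose with 59, 54.5 and 70.7 CPM in meninges, against 6.9, 7.68 and 5.78 CPM in brain (log2 fold change 3.18 ± 0.15, adjusted p = 5.39e-07), and shares 201 exon bases with Cerkl on the same strand. GABAergic neuron genes fell in 16 of 18 and rose in 1 (median -5.86). The neuropeptides Sst, with 0.186, 0.221 and 0.275 CPM in meninges, against 127, 112 and 126 CPM in brain (log2 fold change -9.01 ± 0.15, adjusted p = 1.85e-08), and Npy, with 0.371, 0.166 and 0.11 CPM in meninges, against 37.2, 32.3 and 34 CPM in brain, were among the lowest. Dlx5, a forebrain factor that osteoblasts also express, rose with 46.1, 38 and 28.4 CPM in meninges, against 2.2, 5.34 and 2.72 CPM in brain. Pvalb, a calcium buffer of interneurons and of fast muscle, had 5.08, 326 and 3.19 CPM in meninges, against 29.3, 33.8 and 27.7 CPM in brain, was not called with all libraries and fell without meninges 2, with a log2 fold change of -2.83. Of 9 tested monoamine and acetylcholine genes 4 fell and 3 rose (median -0.45). The 3 that rose were Ddc, given above with melatonin synthesis, and Hdc and Slc6a4, which are also on the mast cell list. Chat, which makes acetylcholine, had no count in meninges and 6.49 ± 0.612 CPM in brain (SD, n = 3), so it was at least 111-fold lower.

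Glial genes were lower, astrocytes less so than oligodendrocytes in the medians. Oligodendrocyte genes fell in 17 of 18 and none rose (median -4.44). Mag, the myelin-associated glycoprotein, had 7.06, 6.56 and 6.22 CPM in meninges, against 184, 244 and 211 CPM in brain (log2 fold change -5.01 ± 0.14, adjusted p = 4.58e-08). Mbp had 162, 171 and 228 CPM in meninges, against 2408, 3046 and 2750 CPM in brain. Precursor genes fell in 8 of 11 and rose in 2 (median -4.0). Olig1 had 1.24, 0.276 and 0.495 CPM in meninges, against 87.8, 89.2 and 75.3 CPM in brain, whereas Cspg4 and Pdgfra, which mural cells and fibroblasts also express, rose with log2 fold changes of 1.15 and 1.25. Astrocyte genes fell in 11 of 16 and rose in 3 (median -2.56). Gfap, the astrocyte filament, had 30.3, 22.1 and 29 CPM in meninges, against 165, 172 and 153 CPM in brain (log2 fold change -2.59 ± 0.13, adjusted p = 6.44e-07), and Mlc1 had 4.52, 4.74 and 7.82 CPM in meninges, against 141, 152 and 149 CPM in brain. The connexins Gja1 and Gjb6, used by astrocytes and leptomeningeal cells alike, rose, Gja1 with 554, 493 and 344 CPM in meninges, against 218, 232 and 200.5 CPM in brain. The median astrocyte gene stood at 15.6%, 16.3% and 19.02% of its brain mean in meninges 1, 2 and 3, and the median oligodendrocyte gene at 3.54%, 3.76% and 5.77%.

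Ependymal and choroid plexus genes depended on single libraries. With all libraries 5 of 14 rose and 3 fell (median 2.65), and 10 rose without meninges 1, while 1 fell without brain 3. The list summed to 465 to 6363 CPM in meninges, against 242 to 679.8 CPM in brain. Ttr was not called with all libraries (log2 fold change 2.87 ± 2.03, adjusted p = 0.264) and rose without meninges 1, with a log2 fold change of 3.47 (adjusted p = 0.0113). Aqp1, a water channel of choroid plexus and of vessels, had 312, 345 and 305 CPM in meninges, against 13.7, 5.95 and 3.46 CPM in brain (log2 fold change 5.34 ± 0.57, adjusted p = 6.12e-04), with meninges 1 between the other two meningeal libraries. Otx2, a factor of choroid plexus and pineal gland, had 59.9, 94.2 and 119 CPM in meninges, against 1.82, 7.15 and 6.25 CPM in brain. Dnah12, a dynein of motile cilia, fell with 0.0619, 0.662 and 0.66 CPM in meninges, against 1.52, 4.48 and 3.32 CPM in brain.

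Genes of receptors, channels and synaptic proteins were mostly lower in meninges. The 12 largest negative fold changes among genes with at least 50 CPM in brain were those of Grm5, Lrrc7, Cacng8, Neurod6, Grin2b, Syt16, Cacng3, Grm3, Lmo3, Vxn, Sst and Pnma8a, and 7 of these encode receptors, receptor partners or synaptic proteins. Glutamate receptor genes fell in 22 of 25 and rose in 1 (median -3.74). Grin2b, an NMDA receptor subunit, had 1.42, 0.827 and 0.991 CPM in meninges, against 1010, 1123 and 1339 CPM in brain (log2 fold change -10.07 ± 0.24, adjusted p = 3.56e-08), and Grm5, a metabotropic receptor, had 0.433, 0.11 and 0.055 CPM in meninges, against 311, 305 and 342 CPM in brain. Gria1, an AMPA receptor subunit, was less far apart, with 45.1, 40.4 and 41.9 CPM in meninges, against 532, 568 and 602 CPM in brain. Grin3b, the member that rose, had 1.24, 2.04 and 2.48 CPM in meninges, against 0.796, 0.935 and 0.199 CPM in brain, shares 1059 exon bases with Tmem259 on the opposite strand and was not called without meninges 2, meninges 3, brain 1 or brain 3. Cacng8, an AMPA receptor partner, had 3 counts in meninges and was 1346-fold lower (95% exact interval 460.2 to 6528).

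GABA and glycine receptor genes fell in 19 of 21 and rose in 1 (median -5.67). Gabrd, an extrasynaptic subunit, had 4.52, 2.59 and 2.64 CPM in meninges, against 66.3, 66.3 and 63 CPM in brain, and Gabbr1, a subunit of the metabotropic receptor, had 128, 112 and 137 CPM in meninges, against 801, 814 and 827 CPM in brain. Gabre rose with 8.98, 6.84 and 7.43 CPM in meninges, against 2.31, 2.4 and 1.13 CPM in brain (log2 fold change 1.98 ± 0.32, adjusted p = 6.22e-04). Sodium and calcium channel genes fell in 16 of 26 and rose in 5 (median -2.11). Scn2a, a sodium channel of axons, had 9.22, 6.34 and 6.61 CPM in meninges, against 465, 456 and 548 CPM in brain (log2 fold change -6.05 ± 0.18, adjusted p = 8.04e-08). Cacna1f and Cacna2d4, which form the calcium channel of photoreceptor synapses, rose, Cacna1f with 54.4, 62.5 and 56.1 CPM in meninges, against 1.44, 1.4 and 2.13 CPM in brain (log2 fold change 5.13 ± 0.18, adjusted p = 1.24e-07) and Cacna2d4 with 102, 101 and 106 CPM in meninges, against 4.17, 5.81 and 3.85 CPM in brain. Scn9a, a sodium channel of sensory neurons, was not called with 0.0619, 0 and 18 CPM in meninges, against 8.38, 12 and 8.11 CPM in brain, and without meninges 3 it fell with a log2 fold change of -8.01. Potassium channel genes fell in 22 of 25 and rose in 2 (median -3.40). Kcnc1, a channel of fast-spiking neurons, had 23.2, 24.3 and 22.1 CPM in meninges, against 286, 291 and 267 CPM in brain (log2 fold change -3.60 ± 0.09, adjusted p = 3.10e-08), while Kcnq1 rose with 4.58, 6.67 and 5.56 CPM in meninges, against 0.72, 0.534 and 0.332 CPM in brain.

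Of 26 genes of vesicles and release 25 fell and none rose (median -4.08). Stx1a, a syntaxin of the release machinery, had 14.2, 15.8 and 14.6 CPM in meninges, against 215, 213 and 211 CPM in brain (log2 fold change -3.84 ± 0.08, adjusted p = 2.90e-08), and Snap25, its partner, had 223, 191 and 285 CPM in meninges, against 1986, 1959 and 2114 CPM in brain. Cplx2 had 34.8, 30.9 and 45.5 CPM in meninges, against 1370, 1297 and 1424 CPM in brain, in contrast to the retinal family member Cplx4 above. Of 26 postsynaptic genes 25 fell and 1 rose (median -3.29). Dlg4, the scaffold PSD-95, had 108, 108 and 113 CPM in meninges, against 712, 750.2 and 769.5 CPM in brain (log2 fold change -2.76 ± 0.08, adjusted p = 6.28e-08), and Camk2b, a subunit of the calcium-dependent kinase, had 69.2, 75.7 and 77 CPM in meninges, against 904, 908 and 953 CPM in brain. Homer3 rose with 21.4, 25.7 and 21.5 CPM in meninges, against 8.0, 8.68 and 7.71 CPM in brain, and 874 of its exon bases overlap Ddx49. Within these lists the remaining level in meninges differed widely between genes. Grm5 stood at 0.0624% of its brain mean and Vamp1, a vesicle protein of motor and other neurons, at 41.4%.

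Bone, blood and nerve genes were also found in the meningeal libraries. Of 15 osteoblast and osteocyte genes 14 rose and none fell (median 6.58). The list summed to 20380 to 36960 CPM in meninges, against 154 to 183 CPM in brain. Most of the meningeal sum was Col1a1, which is also a listed fibroblast gene. The median level of the listed genes was 99.5, 119 and 75.5 CPM in meninges, against 2.2, 1.87 and 2.72 CPM in brain. Sp7, the osteoblast factor osterix, had 60.6, 79.8 and 63.4 CPM in meninges, against 1.82, 1.87 and 2.46 CPM in brain (log2 fold change 5.06 ± 0.18, adjusted p = 1.27e-07), and Alpl, the phosphatase of mineralising cells, had 669.9, 644 and 458 CPM in meninges, against 5.27, 6.61 and 6.71 CPM in brain. Bglap2 had 392, 541 and 368 CPM in meninges, against 0.0758, 0.134 and 0.465 CPM in brain. Of 10 osteoclast genes 8 rose and none fell (median 3.60), with a sum of 629 to 829.7 CPM in meninges, against 24.1 to 36.8 CPM in brain. Ctsk, the collagenase of bone resorption, had 306, 309.5 and 367 CPM in meninges, against 4.59, 4.01 and 4.72 CPM in brain (log2 fold change 6.20 ± 0.13, adjusted p = 2.47e-08). Erythroid genes rose in 10 of 11 and fell in 1 (median 5.54), with a sum of 1751 to 2488 CPM in meninges, against 179 to 230.1 CPM in brain. Alas2, the erythroid enzyme of haem synthesis, had 45.6, 60.2 and 57.7 CPM in meninges, against 1.82, 2.34 and 1.66 CPM in brain, and Hba-a1 had 547, 833 and 649 CPM in meninges, against 7.85, 9.69 and 6.64 CPM in brain, a gene whose reads may be shared with its near-identical copy Hba-a2. Car2, also made by oligodendrocytes, fell with 49.5, 80.04 and 99.8 CPM in meninges, against 146, 181 and 172 CPM in brain. How far bone and blood contribute to the other lists was not tested.

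Schwann cell and peripheral nerve genes rose in 7 of 12 and fell in 2 (median 3.39). Meninges 3 stood apart, with a median level of the listed genes of 9.50, 10.1 and 33.9 CPM in meninges, against 5.44, 5.08 and 5.45 CPM in brain, and without it the median fold change was 2.67 and again 7 rose and 2 fell. The list summed to 615 to 1066 CPM in meninges, against 2495 to 3134 CPM in brain, because Mbp, which oligodendrocytes share, dominated in brain. Pmp22 had 268, 324 and 327 CPM in meninges, against 24.1, 21.4 and 20.3 CPM in brain (log2 fold change 3.80 ± 0.12, adjusted p = 8.55e-08). Melanocyte genes rose in 5 of 6 and none fell (median 1.68), with a sum of 91.5 to 131 CPM in meninges, against 24.2 to 28.7 CPM in brain. Mitf, the melanocyte factor that osteoclasts and mast cells also use, had 68.8, 87.7 and 97.4 CPM in meninges, against 13.6, 13.6 and 12.9 CPM in brain. The pigment gene Mlana had 3 counts in meninges and 3 in brain, and Slc45a2 had 1 and 3. Keratinocyte genes split into 3 higher and 3 lower of 8 (median 0.01), with a sum of 80.5 to 86.9 CPM in meninges, against 21.3 to 31.2 CPM in brain. Most of the meningeal sum was Perp, a desmosome protein of epithelia, which had 66.1, 65.8 and 59.5 CPM in meninges, against 5.23, 3.94 and 5.25 CPM in brain. The median level of the listed genes was 1.49, 2.15 and 1.49 CPM in meninges, against 2.96, 1.80 and 1.66 CPM in brain. Krt5 had no count in meninges and 3 in brain. Adipocyte genes rose in 5 of 8 and none fell (median 1.99, with 8 higher of 10 without meninges 1), with a sum of 173 to 233 CPM in meninges, against 31 to 39.1 CPM in brain. Fabp4, a lipid carrier of fat cells and capillaries, had 50.1, 50.9 and 50.6 CPM in meninges, against 0.986, 0.134 and 0.0664 CPM in brain (log2 fold change 6.69 ± 0.61, adjusted p = 1.69e-04), and Adipoq, which fat cells secrete, had 0.805, 0.772 and 3.25 CPM in meninges, against 0, 0 and 0 CPM in brain.

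Skeletal muscle genes were called in only 2 of 14 (median 6.61), and the level was set by meninges 2. Tnnt3, a fast troponin, had 8.36, 699.7 and 4.84 CPM in meninges, against 0.227, 0.0668 and 0.332 CPM in brain (log2 fold change 10.08 ± 3.35, adjusted p = 0.0486), and Actn3 had 15.4, 236 and 10.4 CPM in meninges, against 0.986, 1.0 and 0.598 CPM in brain. Neither Tnnt3 nor Actn3 was called when any 1 brain library was left out. Without meninges 2 the median was 1.62 and 8 genes rose while 1 fell, with Actn3 at a log2 fold change of 3.92. Acta1, skeletal actin, had a log2 fold change of 0.02 without meninges 2 and of 5.83 with all libraries, neither of them called.

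Genes of stress and hormone response differed between the tissues as well. Immediate early genes rose in 17 of 26 and fell in 5 (median 2.20). Klf2, an endothelial flow-response factor, had 165, 159 and 169 CPM in meninges, against 21.4, 14.9 and 19 CPM in brain (log2 fold change 3.15 ± 0.13, adjusted p = 2.74e-07), and Nr4a1 had 433, 455 and 416 CPM in meninges, against 77.9, 77.8 and 102 CPM in brain. Arc, the activity-regulated gene of neurons, fell with 2.1, 1.16 and 1.93 CPM in meninges, against 43.3, 48 and 41.3 CPM in brain (log2 fold change -4.67 ± 0.21, adjusted p = 3.90e-07), and Egr4 fell with 1.05, 1.05 and 1.49 CPM in meninges, against 26.4, 27.7 and 36.8 CPM in brain. Glucocorticoid targets rose in 16 of 18 and fell in 1 (median 2.39). Tsc22d3, the leucine zipper protein GILZ, had 798, 785 and 597 CPM in meninges, against 86.8, 92 and 85.1 CPM in brain (log2 fold change 3.05 ± 0.13, adjusted p = 2.74e-07), and Errfi1, a feedback inhibitor of EGF receptor, had 1439, 1389 and 1155 CPM in meninges, against 68.1, 47 and 57.4 CPM in brain. The member that fell, Zbtb16, was not called without meninges 1, without meninges 3 or when any 1 brain library was left out, with 32.8, 62.3 and 25 CPM in meninges, against 74.2, 81.2 and 84.4 CPM in brain. Clock genes fell in 13 of 20 and rose in 5 (median -0.48). Of these, 4 lower and 3 higher genes passed the test against 2-fold, beside 19.7% lower and 19.6% higher of all tested genes. Per1 rose with 564, 582 and 518 CPM in meninges, against 126, 120.1 and 148 CPM in brain (log2 fold change 2.08 ± 0.11, adjusted p = 6.83e-07), while Rorb fell with 12.6, 14.7 and 15.5 CPM in meninges, against 66.5, 57 and 60.8 CPM in brain and Clock with 88.1, 93 and 86.4 CPM in meninges, against 147, 151 and 150.5 CPM in brain.

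Cell cycle genes rose in 15 of 24 and fell in 1 (median 1.06), and 4 of the higher genes and the lower one passed the test against 2-fold. The number that rose lay between 10 and 19 over the libraries left out. Mcm4, a helicase subunit of replication, had 32.9, 27.1 and 30.9 CPM in meninges, against 9.93, 8.42 and 10.1 CPM in brain (log2 fold change 1.67 ± 0.13, adjusted p = 9.71e-06), and Ccne1, the one that fell, had 3.71, 1.32 and 4.35 CPM in meninges, against 15.5, 12.6 and 13.4 CPM in brain. Cytosolic ribosomal protein genes rose in 39 of 47 and fell in 2 (median 1.05), and 12 of the higher genes and none of the lower passed the test against 2-fold. Rps4x had 362, 388 and 372 CPM in meninges, against 166, 128 and 138 CPM in brain (log2 fold change 1.38 ± 0.11, adjusted p = 9.39e-06). The count that fell was 1 without meninges 1, meninges 2, brain 1 or brain 2, and processed pseudogenes of these genes make the assignment of their reads uncertain. Oxidative phosphorylation genes of the nucleus were lower for 21 of 48 members and higher for 5 (median -0.22). None of the lower genes and 1 of the higher passed the test against 2-fold. The number lower was 12 without brain 1 or meninges 1 and with plain library totals, and the number higher lay between 2 without brain 2 and 9 without meninges 1, with 3 without brain 3, meninges 2 or meninges 3 and 8 with plain library totals. Ndufs1, a subunit of complex I, fell with 63.6, 80.9 and 71.1 CPM in meninges, against 119.9, 123 and 121 CPM in brain (log2 fold change -0.76 ± 0.10, adjusted p = 1.72e-04).

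In 14 pairs of related genes, and the unrelated pair of Mrc1 and P2ry12, levels were set side by side per length. Both genes were called and moved in opposite directions in 7 of the 15 pairs. Cdh11, a mesenchymal cadherin, stood at 109 FPKM in meninges and 9.61 FPKM in brain, and Cdh10 at 0.0954 FPKM in meninges and 4.94 FPKM in brain. Of the tubulins, Tubb6 stood at 22.1 FPKM in meninges and 3.61 FPKM in brain, and the neuronal Tubb3 at 37.9 FPKM in meninges and 148 FPKM in brain, with a log2 fold change of -1.97 for Tubb3 (adjusted p = 0.0196). Tubb3 had -2.68 without meninges 3 (adjusted p = 1.67e-08) and lost its call without meninges 1, meninges 2, brain 1 or brain 3 and without the filter, with adjusted p up to 0.0603. The GABA carrier Slc6a13 stood at 9.64 FPKM in meninges and 2.98 FPKM in brain, while the related Slc6a11 stood at 21.7 FPKM in meninges and 48.4 FPKM in brain. Other opposite pairs were Aldh1a2 with Aldh1a1, Fxyd5 with Fxyd6 and Mrc1 with P2ry12. Some pairs moved alike. Crabp2 and Crabp1, which bind retinoic acid, both rose, with log2 fold changes of 3.83 and 4.86, and so did Igfbp6 and Igfbp2 (2.91 and 2.40), Gjb2 and Gjb6 (3.49 and 1.10), and Col1a1 and Col9a1 (9.14 and 2.81). Of the lecticans Bcan fell (-4.29), while Vcan (-0.35, adjusted p = 0.0471) was called with all libraries but lost its call in 15 of 18 alternatives, with adjusted p up to 0.166.

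Genes higher and lower in meninges also differed in length. The median genomic span was 18.8 kb for genes higher beyond 2-fold, 29.3 kb for genes lower beyond 2-fold and 20.2 kb for all tested genes. Among protein-coding genes under 3 kb, 23.9% of 724 were higher beyond 2-fold and 12.6% lower. Of the 534 that span at least 300 kb, 9.93% were higher and 56.9% lower, with a median log2 fold change of -1.92. Between these ends the share lower was 13.6%, 13.3%, 18.3% and 30.1% for spans of 3 to 10, 10 to 30, 30 to 100 and 100 to 300 kb.

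**Figure D4:**
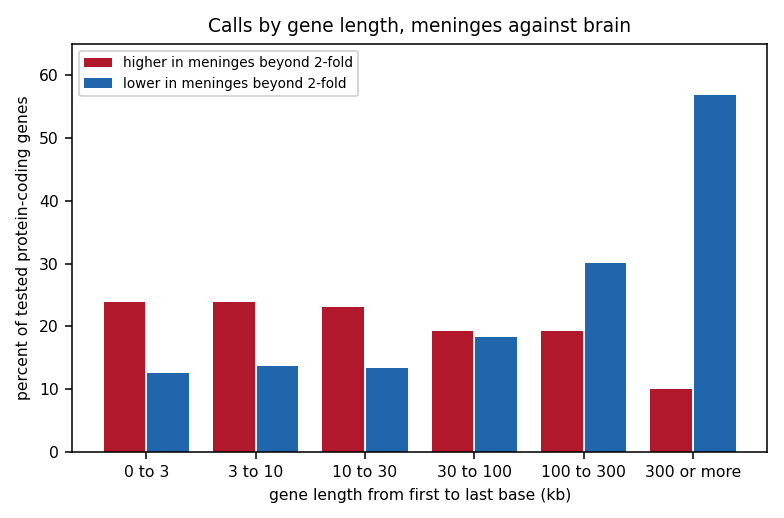
Percent of protein-coding genes higher and lower in meninges beyond 2-fold (vertical axis) by bin of genomic span in kb (horizontal axis). The share of lower genes grows to 56.9% at spans of 300 kb or more, where the share of higher genes is 9.93%.

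The same tissue comparison in mice given UVB light repeated most of these differences, in libraries that the comparison of untreated mice did not use. At 0.5 h, 7630 of 18525 tested genes (41.2%) passed beyond 2-fold, 4065 (21.9%) higher and 3565 (19.2%) lower, and at 24 h 7621 of 18450 (41.3%) did, 3984 (21.6%) higher and 3637 (19.7%) lower. Of the genes higher beyond 2-fold in untreated meninges that were also tested at the later time, 3345 of 3571 (93.7%) were also higher at 0.5 h, which is 85.4% of the genes higher at 0.5 h, and 3171 of 3506 (90.4%) were also higher at 24 h, which is 81.8% of those at 24 h. Of the genes lower, 3221 of 3521 (91.5%) were also lower at 0.5 h and 3136 of 3506 (89.4%) at 24 h, which are 92.6% and 89.7% of the genes lower at those times. No gene called beyond 2-fold in untreated mice was called beyond 2-fold in the opposite direction at either time. By an adjusted p of 0.05 alone, 2 genes higher in untreated meninges were lower at 0.5 h, and at 24 h 8 genes higher in untreated meninges were lower and 8 lower ones were higher. For Fmod the log2 fold change was 7.19 in untreated mice, 7.04 at 0.5 h and 6.76 at 24 h. For Mag the 3 values were -5.01, -5.04 and -4.40, and for Tph1 11.21, 10.56 and 10.45. A change of the tissue difference itself was called for 2 of 21500 genes (0.00930%) at 0.5 h and for 283 (1.32%) at 24 h.

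**Figure D5:**
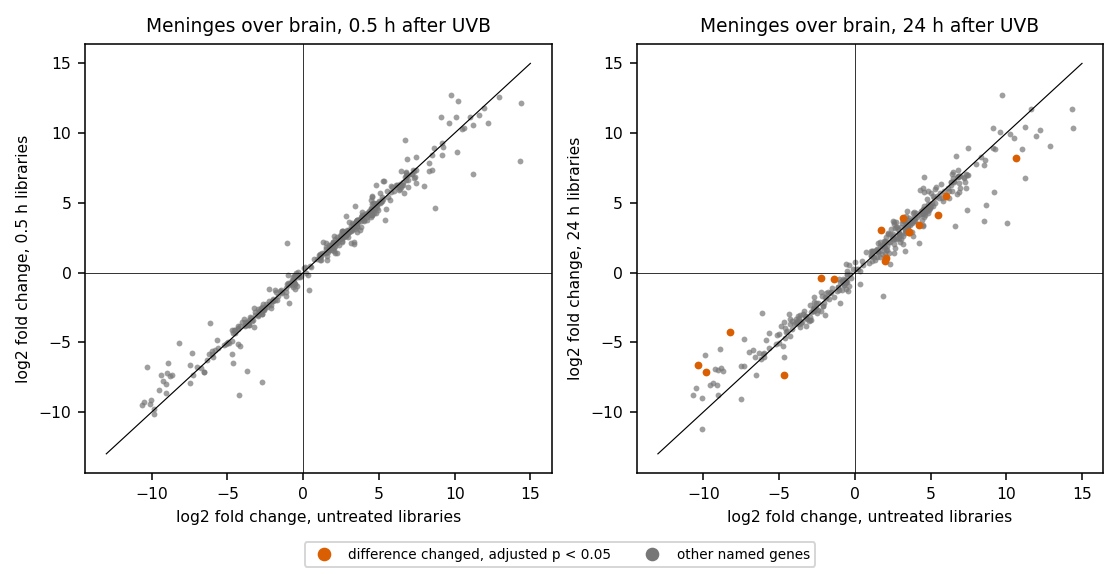
Log2 fold change of meninges over brain for the named genes at 0.5 h and 24 h after UVB (vertical axes, 1 panel each) against that in untreated mice (horizontal axis), with the line of equality; orange points are genes whose tissue difference changed at an adjusted p under 0.05. Most points lie near the line.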

How the data were processed

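RNA was measured in 27 libraries of skullcap, meninges and brain, 3 per tissue and time. The authors deposited whole-number read counts per gene for all 27 libraries in a single table, and every sample column matched a label. Reads were aligned with HISAT2 2.1.0 to mm10, per the submitters' processing notes. Which tool, annotation and strand setting produced the counts is not given in the sources used here, so reads of overlapping genes cannot be told apart. Libraries were grouped by the tissue and time in their titles.

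Counts were tested with edgeR 4.0.16 in R 4.3.3 by the robust quasi-likelihood F test on the 6 untreated libraries with TMM scaling, after filterByExpr with a minimum count of 10 and a total of 15. P-values were adjusted by Benjamini-Hochberg over all 18627 genes and called at 0.05. A second call tested against a fold of 2 (glmTreat). The standard error of a log2 fold change is its size divided by the square root of F. The test script was tested on simulated data. The change of the tissue difference with time was tested as an interaction over all 27 libraries. Levels per length used GENCODE M21 exon lengths (GRCm38), which matched 33783 of 37095 symbols (91.1%). Promoter windows are from RefSeq. Intervals for ratios over 1 to 3 counts are exact 95% binomial intervals, bounds use a floor of 3 counts over a group, and both cover counting error only.

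Genes were named by rule. The rule took the 12 largest fold changes each way among genes of at least 50 CPM, the 10 highest levels per length in each tissue, up to 4 members per list with the smallest p in its main direction and 2 in the other, and all gene pairs. Further members were named after their values were seen, including pineal enzymes, single members of lists and genes that mark libraries that stood apart, and a few genes that the rule takes are not reported here. The members, the 66 lists and the rules were chosen with earlier results of these data known. Of 1152 distinct listed genes 1080 were tested, 61 fell below the filter and 11 had no row.

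The labels do not say whether same-numbered meningeal and brain libraries share an animal, and these libraries deviated together little over all genes. The numbers were therefore not used as pairs in the main test. Alternatives covered other scalings and filters, DESeq2 1.42.0, limma 3.58.1, fits over more libraries, a replicate block and leaving out each library.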

Additional observations from a re-analysis of the deposited data

Results flagged for a closer look

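For 15 of the genes reported here the difference between meninges and brain changed between untreated mice and mice at 24 h after UVB light, by a test of the change itself over all 21500 genes in a fit of the 27 libraries. The values that follow are the log2 change of the difference, 24 h minus untreated, with its standard error, and the log2 fold changes of meninges over brain come from each time's own fit. The light, the time of harvest and the libraries cannot be told apart in these values.

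Among signals, Wnt7b changed by 3.92 ± 0.60 (adjusted p = 0.00107), with a log2 fold change of -4.23 at 24 h and -8.23 in untreated mice, where it had 5 counts over the 3 meningeal libraries. Inhba changed by 1.83 ± 0.26 (adjusted p = 0.000583), with -0.36 at 24 h and -2.25 in untreated mice. Nbl1 changed by -0.70 ± 0.14 (adjusted p = 0.00815), with 2.94 at 24 h and 3.57 in untreated mice.

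Of 3 matrix genes, all with smaller differences at 24 h, Ccn2 changed by -1.44 ± 0.21 (adjusted p = 0.000586), with 4.13 at 24 h and 5.50 in untreated mice. Prelp changed by -0.89 ± 0.17 (adjusted p = 0.0081), and Chad by -2.44 ± 0.61 (adjusted p = 0.0483).

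In vessels and macrophages, Eng changed by 0.66 ± 0.12 (adjusted p = 0.00577), Mylk by -0.59 ± 0.14 (adjusted p = 0.0456) and Maf by -0.72 ± 0.18 (adjusted p = 0.0497).

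Among neuronal genes, Cacng8 changed by 3.64 ± 0.78 (adjusted p = 0.0192) and Syt16 by 2.63 ± 0.66 (adjusted p = 0.0483), both with 4 counts or fewer over the 3 untreated meningeal libraries. Arc changed by -2.71 ± 0.61 (adjusted p = 0.0303), with -7.32 at 24 h and -4.67 in untreated mice.

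Of the cell state genes, Per1 changed by -1.11 ± 0.21 (adjusted p = 0.00724), Tef by 0.81 ± 0.18 (adjusted p = 0.0224) and Mcm6 by 1.24 ± 0.27 (adjusted p = 0.0207).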

How the results depend on the processing

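The number of genes called was 13319 and lay between 12537 and 15157 over the alternatives, and the number beyond 2-fold was 7332 and lay between 6355 with DESeq2 and 8498 when all 27 libraries were fitted. Leaving out 1 library gave 12537 to 13330 calls and 6917 to 7496 beyond 2-fold. Without the filter 14545 genes were called. The correlations of deviations between same-numbered libraries were 0.077, 0.102 and 0.030. Each library correlated best with its own number, a hint from the data and not from the design. The labels do not say whether same-numbered libraries share an animal, and these small correlations cannot decide it. A replicate block gave 12603 calls and 7067 beyond 2-fold in untreated mice, and 7314 and 7326 beyond 2-fold at 0.5 h and 24 h.

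Of 7046 log2 fold changes of named genes under the alternatives, 6919 kept their direction and their side of the threshold, and 21 of the 374 called named genes lost their call under at least 1 alternative. In 9 values, of 5 genes that were not called with all libraries, the direction turned. Gdf15 had a log2 fold change of -1.09 (adjusted p = 0.527), against 2.90 (adjusted p = 0.0307) without brain 1, 1.26 with limma and 0.53 with a replicate block, and lay between -1.61 and 2.90 over the libraries left out. Pvalb had 1.88 (adjusted p = 0.415), against -2.83 (adjusted p = 1.51e-05) without meninges 2 and -1.01 with a replicate block, and lay between -2.83 and 2.46 over the libraries left out. The other three, with no call under any library left out, lay between -0.84 and 0.83 (Trp63), -1.31 and 0.27 (Retn) and -0.026 and 0.13 (Cldn5). The cause was not tested. The 3 libraries per tissue limit what can be said of genes with a few counts, and of choroid plexus, muscle, interferon and neurofilament genes, which single libraries decide.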
